A study of Mus musculus with 8 samples.

Results

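The genes that elicited macrophages express without added acetylated lipoprotein were read from the 4 arrays of unloaded cells. These are 4 of the 8 arrays of the series. All genes with a probe set that names exactly 1 gene were taken, 19938 in all, and a gene with several such probe sets was represented by the brightest on average. The cells came from C57BL/6J mice that had received thioglycollate, an irritant broth that draws monocytes into the peritoneal cavity, where they become macrophages. They were harvested 5 days after the injection and then cultured in DMEM with 10% fetal bovine serum and with no acetylated lipoprotein. The sample protocols give 3 days of culture and the series design gives 2 days. The 4 arrays are called independent biological replicates, and which or how many mice went into each culture is not stated in any source used here. No genotype, transgene or sorting step is named in the labels, so the cells are what the peritoneal harvest left after culture.

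Macrophages are phagocytes. They bind particles, dead cells and lipoproteins through surface receptors, pass them to acid lysosomes for digestion, and then store, export or burn the lipid that is released. Their identity is kept by a small set of transcription factors, PU.1 (Spi1) among them, and on contact with microbes they secrete cytokines and chemokines that many of them do not make at rest.

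A value on these arrays is the log2 fluorescence signal of a probe set, and probe sets differ in how strongly they bind. The level of a gene is therefore given as its signal and as its rank or percentile among the 19938 genes, where percentile 50 is the middle gene, and a rank is not a number of transcripts. Olfactory receptor genes (symbols starting with Olfr) are mostly silent outside the nose and served as the background. Their median signal was 4.46 ± 0.04 (SD, n = 4 arrays), against 6.49 ± 0.05 for all genes. The 95th percentile of the 1027 Olfr genes, taken on each array separately, lay at 6.10, 6.34, 6.27 and 6.15 on arrays 1 to 4 and is called the olfactory receptor level. A gene was counted as above the level when it exceeded it on 4 of 4 arrays. A gene not above the level may still be transcribed.

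By that rule 10465 genes, 52.5% of those measured, were above the olfactory receptor level, 8041 were above it on 0 arrays and 1432 on 1 to 3 arrays. Of the Olfr genes themselves 39, or 3.80%, passed. Taken singly, the arrays had 10792 to 11428 genes above the level. Signals ran from 2.79 to 13.76 across genes and arrays. Among other families that are silent in most tissues, 2 of 167 vomeronasal receptor genes and 0 of 34 bitter taste receptor genes were above the level, and so were 10 of 44 keratin-associated protein genes (22.7%) and 4 of 40 beta-defensin genes (10%). At the other end, 56 of 59 cytoplasmic ribosomal protein genes, 37 of 39 proteasome subunit genes and 33 of 34 genes of the first complex of the respiratory chain were above it. These families, apart from the vomeronasal genes, were chosen after the values were seen. Of protein-coding genes 10079 of 18556 (54.3%) passed, and of long non-coding RNA genes 183 of 675 (27.1%).

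**Figure D1:**
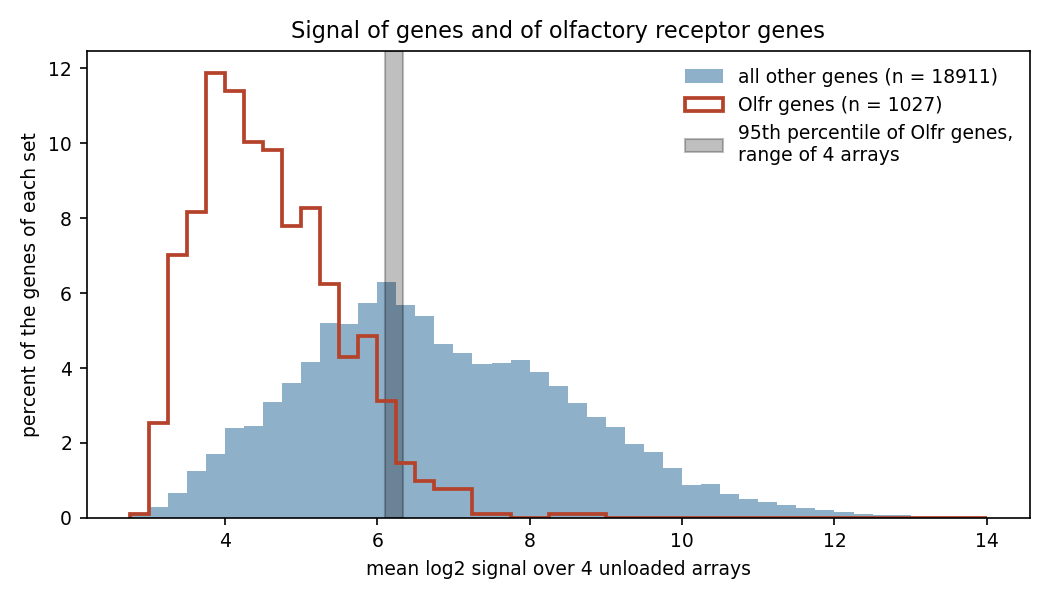
Distribution of the mean log2 signal over the 4 unloaded arrays for the 1027 Olfr genes (red outline) and the other 18911 genes (blue), each as a percent of the genes of its set in bins along the signal axis. The grey band spans the olfactory receptor level of the 4 arrays, 6.10 to 6.34. The Olfr genes centre near 4.46 and the other genes reach far to the right of the band.

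The 4 arrays ordered the genes in nearly the same way. Pearson correlations across genes were 0.994 to 0.997 for the 6 pairs of arrays, a description across genes that are not independent replicates. Among genes above the level, the median SD between arrays was 0.101, and 46 of them had an SD of at least 0.3. The spread was widest for genes near the middle of the signal range, with a median SD of 0.126 in the middle 20% of genes by mean signal, and narrowest for the brightest 20% of genes, at 0.0859. Arrays 1 and 4 resembled each other, as did arrays 2 and 3. After each gene's mean was taken away, the correlation over genes above the level was 0.18 for arrays 1 and 4 and 0.24 for arrays 2 and 3, and it was -0.53 to -0.72 for the other 4 pairs. Taking away the mean of 4 arrays alone gives about -0.33 where arrays share nothing. No slide or scan date was at hand, so whether a processing batch separates these pairs was not tested.

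The cells carried the transcripts of macrophages. Of 18 macrophage markers 17 were above the level (94.4%, beside 52.5% of all genes), and their median percentile was 98.5. Lyz2, the lysozyme of myeloid cells, gave signals of 12.89, 12.77, 12.82 and 12.86 on arrays 1 to 4. Adgre1, which encodes the F4/80 antigen, was at 9.84, 9.56, 9.60 and 9.83, and Csf1r, the receptor for the macrophage growth factor M-CSF, at 11.17, 11.02, 11.16 and 11.14. All of these values lie far above the level on every array. Mpeg1, a pore-forming protein of phagocytes, averaged 12.63 ± 0.02, Cybb, the catalytic subunit of the phagocyte oxidase, 12.35 ± 0.03, and Sirpa, the receptor for the CD47 signal on other cells, 12.17 ± 0.03 (SD, n = 4, as for all values below given with an error). The exception was Aif1, which encodes IBA1 and gave 5.49, 5.62, 5.83 and 5.56, below the level on every array and at percentile 30.4. Fcgr1, the high-affinity IgG receptor, was above the level but in a lower rank than the other markers that passed (7.14 ± 0.09, percentile 62.4).

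Markers that separate resident from recruited peritoneal macrophages were mixed. Of 12 markers of the large resident macrophage 4 were above the level (33.3%, beside 52.5% of all genes). They were Fn1, which encodes fibronectin (10.74 ± 0.14), the B-cell chemokine Cxcl13 (10.49 ± 0.09), the acute-phase protein Saa3 (10.08 ± 0.24) and Gata6, the transcription factor of resident peritoneal macrophages. Gata6 gave 8.03, 7.98, 8.14 and 8.21, a tight set at percentile 77.3. Timd4, a phosphatidylserine receptor of long-lived resident cells, gave 5.36, 5.80, 5.56 and 5.69 and was above the level on 0 arrays. Cd5l, a secreted scavenger protein of resident macrophages, and Vsig4, a complement receptor, were near the level and passed on 3 of 4 arrays, with means of 6.58 ± 0.32 and 6.47 ± 0.22. Icam2 (6.27 ± 0.25) passed on 3 arrays and Alox15 (6.20 ± 0.24) on 2. Tgfb2 (5.96 ± 0.18), F5 (5.47 ± 0.15) and Prg4 (4.84 ± 0.13) passed on 0 arrays. Of the 10 markers of small, monocyte-derived peritoneal macrophages 4 were above the level (40%). All 4 belong to antigen presentation by MHC class II: Cd74 (8.86 ± 0.11), H2-Aa (8.68 ± 0.12), H2-Eb1 (8.23 ± 0.05) and H2-Ab1 (7.93 ± 0.24). The others were not above the level. Ccr2, the receptor that leads monocytes to inflamed tissue, gave 4.49, 4.45, 4.17 and 4.50, and Retnla, a marker of alternative activation, 4.19, 4.38, 4.36 and 4.45, both within the range of the Olfr genes.

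Markers of lymphocytes and granulocytes were for the most part at the background. Lists of lymphocytes, neutrophils, mast cells with eosinophils, and dendritic cells had 0% to 40% of members above the level, beside 52.5% of all genes. Of 12 neutrophil markers 0 passed on 4 of 4 arrays, and S100a8 and Lcn2 passed on 1 array each. The surface marker Ly6g was at 4.65, 4.91, 4.90 and 4.68. The perforin gene Prf1 (6.60 ± 0.09) was the single member of 10 NK cell markers above the level, and Cd22, an inhibitory B-cell lectin (8.09 ± 0.06), was the single member of 12 B-cell markers, a count that was 2 without array 2 or without array 4. Of 13 T-cell markers 4 passed: Il7r, Cd28 (7.92 ± 0.13), Thy1 (6.56 ± 0.24) and Cd3e (6.47 ± 0.10), while Cd3d, Cd3g, Cd4 and Cd8a did not. Siglecf (7.97 ± 0.13) and the tryptase Tpsb2 (6.40 ± 0.13) passed among 12 mast cell and eosinophil markers. Cd83, Batf3, Ccr7 and Zbtb46, the last a transcription factor of classical dendritic cells at 6.60 ± 0.19, passed among 10 dendritic cell markers. Summed linear signal per array was 533 to 562 over the 12 neutrophil markers, 740 to 824 over the 12 B-cell markers, 295 to 322 over the 10 NK cell markers, 662 to 705 over the 12 mast cell and eosinophil markers and 772 to 861 over the 10 dendritic cell markers. Over the 13 T-cell markers, which include the bright Il7r (12.22 ± 0.01), it was 5584 to 5701, against 58981 to 62219 over the 18 macrophage markers. The lists differ in size and in probe sets, and background signal adds to each sum, so the sums give no share of cells.

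Fibroblast and mesothelial markers were for the most part above the background. Of 14 such markers 11 were above the level (78.6%, beside 52.5% of all genes). Their median percentile was 63.5, against 36.2 for the T-cell list, and their summed linear signal was 5891 to 7129 per array. Dcn, which encodes the matrix proteoglycan decorin, gave 10.79, 10.59, 10.69 and 10.90. Pdgfra, the growth factor receptor of fibroblasts, gave 9.85, 9.67, 9.63 and 10.08, and Col1a1, a chain of type I collagen, 9.40, 9.35, 9.34 and 9.61. In each of the 3 genes array 4 was the highest. Sparc (9.67 ± 0.15), Col1a2 (9.67 ± 0.16) and Col3a1 (9.23 ± 0.12) were in the brightest 10% of genes as well. Of the mesothelial markers Wt1, Lrrn4, Upk3b and the keratin gene Krt8 were above the level at means of 6.65 to 7.44, and Msln (6.02 ± 0.14) and Krt19 (5.95 ± 0.09) were not. Lum, which encodes the fibroblast proteoglycan lumican, was at 4.36, 4.08, 4.07 and 3.98. In bulk RNA, a few cells with much of a transcript and many cells with little of it cannot be told apart. The part of other cells in any level given here, those of the resident macrophage markers included, was not tested. The endothelial genes Vwf (8.78 ± 0.06) and Kdr (7.20 ± 0.04) were above the level, whereas Pecam1, Cdh5, Tek, Tie1, Esam and Emcn were not. Among 6 erythroid and platelet markers Pf4 (6.79 ± 0.16) and Itga2b (6.63 ± 0.23) passed.

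**Figure D2:**
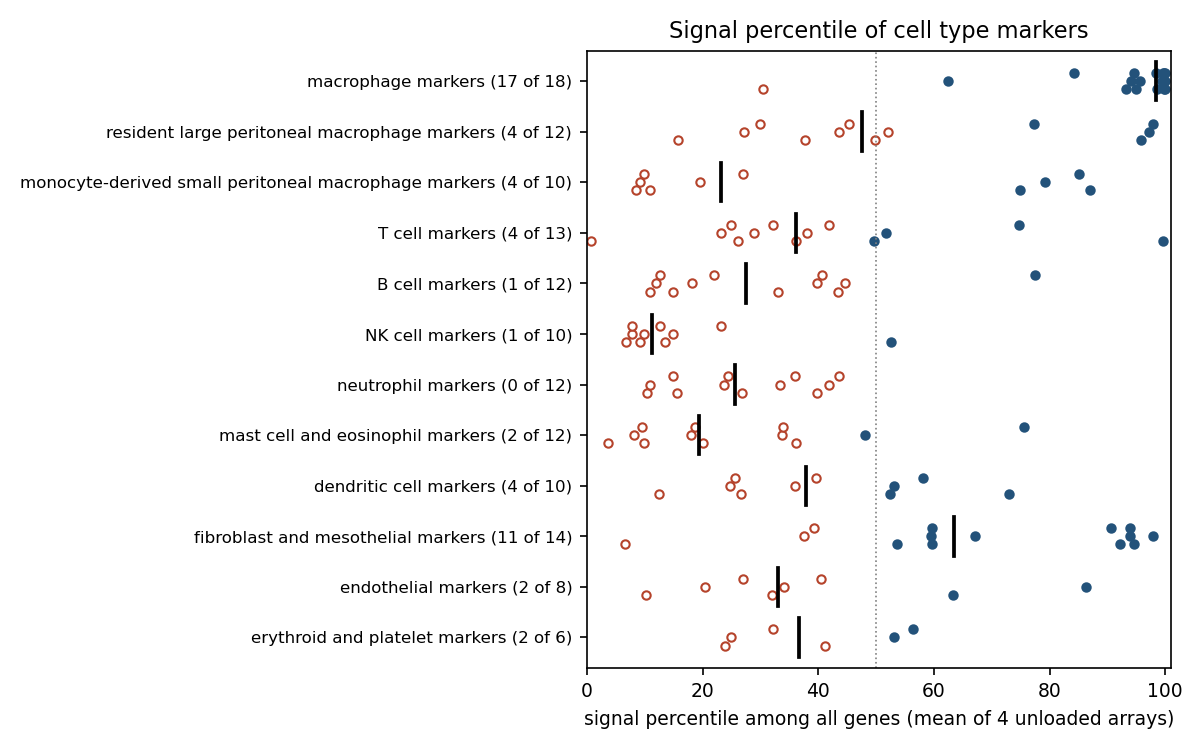
Signal percentile among all genes (mean of 4 unloaded arrays, x axis) of each measured marker, by cell type. Filled points are above the olfactory receptor level on 4 of 4 arrays, open points are not, black bars are list medians, the dotted line is percentile 50, and the counts give members above the level of members measured. Macrophage markers crowd at the right edge apart from Aif1, Fcgr1 and Cd200r1, neutrophil markers are all open, and fibroblast and mesothelial markers spread to the right.

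The brightest genes of all included many of the lysosome, iron storage and the cytoskeleton. Of the 30 highest genes 9 encode soluble lysosomal proteins or, in 1 case, a proton pump subunit: Psap, Ctsd, Ctsb, Ctss, Ctsz, Ctsl, Lipa, Grn and Atp6v1b2. Gpnmb (rank 6), Cd68 (rank 16) and Laptm5 (rank 25) are membrane proteins of the same compartment. Psap, whose product is cut into the activators of sphingolipid breakdown, held rank 2 at 13.60, 13.64, 13.63 and 13.66, and the protease cathepsin D, Ctsd, rank 3 at 13.57, 13.55, 13.51 and 13.62. Ferritin was represented by its heavy chain Fth1 (13.50 ± 0.04, rank 5) and light chain Ftl1 (13.05 ± 0.03, rank 14). Mmp12, the macrophage elastase that digests elastin outside the cell, held rank 8 at 13.33 ± 0.01. Actb, Vim, Anxa1 and Anxa5 supply the actin and vimentin filaments and calcium-dependent membrane binding, and Cd36, B2m, Cd53, Lgals3, Lyz2 and Mfge8 the surface or the secretions. Fth1, Ftl1, Actb, Eef1a1 and Ppia have many processed copies in the genome, and their values may include them. The first rank belonged to Baiap2l1, an adaptor of membrane bending, at 13.73, 13.76, 13.68 and 13.70. This gene has 3 probe sets here, and the lowest of them averaged 5.18, so its rank rests on 1 probe set; with the mean of its probe sets its level was 10.26.

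Lysosomal genes ranked high. Of 93 measured genes in 4 lists 85 were above the level (91.4%, beside 52.5% of all genes), their median percentile was 97.0, and 66 lay in the brightest 10% of genes. They supplied 20 of the 100 brightest genes. All 31 measured glycosidases, lipases and sulfatases and all 21 membrane and sorting proteins passed.

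Most proteases were bright. Of 18 cathepsins and related enzymes 14 were above the level (77.8%, beside 52.5% of all genes), and their median percentile was 99.2. Cathepsin B (Ctsb) gave 13.22, 13.22, 13.22 and 13.26 and cathepsin S (Ctss), which trims the invariant chain in antigen presentation, 13.17, 13.15, 13.14 and 13.16. The asparaginyl protease Lgmn followed at 12.61 ± 0.04, and the collagen-degrading cathepsin K (Ctsk), best known from osteoclasts, held percentile 99.6 with an SD of 0.02. The 4 arrays nearly coincide for each of these genes. The 4 members that did not pass were Ctsf (above on 3 arrays, 6.35 ± 0.11), Ctse (5.69 ± 0.11), Ctsw (5.64 ± 0.08) and Ctsg (5.30 ± 0.07). Ctsw is known from cytotoxic lymphocytes and Ctsg from neutrophil granules.

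Enzymes that free lipid and sugar from swallowed material were high. Lipa, the acid lipase that cleaves cholesteryl esters and triglycerides of lipoproteins, gave 12.75, 12.66, 12.64 and 12.73. Hexa, a subunit of hexosaminidase, averaged 12.12 ± 0.05, the alpha-mannosidase Man2b1 11.80 ± 0.05, the beta-glucuronidase Gusb 11.79 ± 0.05 and the alpha-galactosidase Gla 11.48 ± 0.02. The lowest of the 31 were Arsb (8.01 ± 0.21), Sgsh (7.41 ± 0.10) and Hyal2 (7.09 ± 0.08), which act on glycosaminoglycans. Even these 3 exceeded the level on every array. Both cholesterol carriers of the lysosome were bright, Npc2 in the lumen (11.98, 11.83, 11.78 and 11.88) and Npc1 in the membrane (10.95, 10.99, 10.94 and 11.04). Lamp1, a main glycoprotein of the lysosomal membrane, averaged 12.55 ± 0.04, and the chloride transporter Clcn7 11.46 ± 0.06.

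The proton pump that acidifies the lysosome, the V-ATPase, has alternative subunits encoded by paralogs, and these differed in level. Of 23 measured genes 19 were above the level (82.6%, beside 52.5% of all genes), with a median percentile of 97.9. Atp6v1b2 was at 12.83, 12.82, 12.81 and 12.82, whereas its paralog Atp6v1b1, known from kidney and inner ear, was at 5.99, 6.03, 6.06 and 6.01. Atp6v0d2, a form known from osteoclasts and macrophages, averaged 12.62 ± 0.03. On each of the 4 arrays Atp6v1b2 and Atp6v0d2 were above the level and Atp6v1b1 was below it. The other members not above the level were Atp6v0a4 (6.00 ± 0.14), Atp6v1c2 (5.78 ± 0.07) and Atp6v1g3 (5.34 ± 0.04), and for each of them another form of the same subunit passed, such as Tcirg1 (11.66 ± 0.04), Atp6v1c1 (12.02 ± 0.04) and Atp6v1g1 (10.43 ± 0.06).

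**Figure D3:**
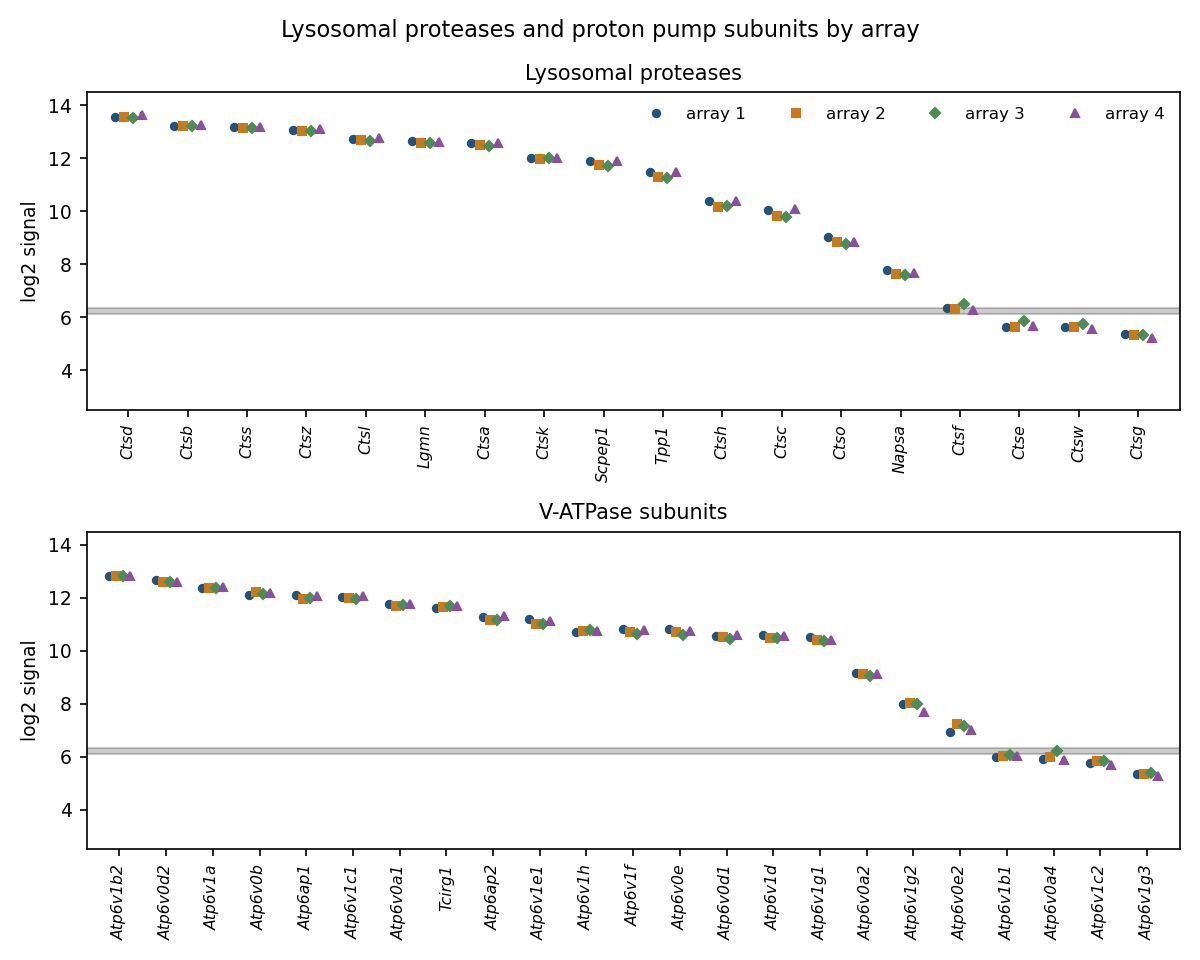
Log2 signal (y axis) of the 18 measured lysosomal proteases and the 23 measured V-ATPase genes on each of the 4 unloaded arrays, ordered by mean; the grey band spans the olfactory receptor level of the arrays. The 4 symbols of a gene nearly coincide for the bright members, and Ctse, Ctsw, Ctsg, Atp6v1b1, Atp6v0a4, Atp6v1c2 and Atp6v1g3 lie within or below the band.

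Many lysosomal genes share an upstream sequence that binds TFEB, TFE3 and MITF, basic helix-loop-helix factors that raise lysosome production. Its core, TCACGTG, was searched on both strands of RefSeq windows (GRCm38.p6) from 250 bases before to 50 bases after the start of transcription. The 3 brightest lysosomal genes that hold it, and Psap as the brightest that does not, are shown because their signals are equally near the top while their upstream sequence differs in this element. Only the 250 bases before the start are printed, 5′ to 3′ along the gene, and capitals mark each match to the core or to its complement.
Ctsd, chr7:142387828-142388077, minus strand: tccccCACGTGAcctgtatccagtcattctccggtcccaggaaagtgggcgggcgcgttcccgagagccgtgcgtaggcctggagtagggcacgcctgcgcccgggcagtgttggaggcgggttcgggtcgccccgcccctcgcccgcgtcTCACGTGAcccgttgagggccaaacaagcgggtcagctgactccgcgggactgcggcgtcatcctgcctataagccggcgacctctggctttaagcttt
Lamp1, chr8:13158911-13159160, plus strand: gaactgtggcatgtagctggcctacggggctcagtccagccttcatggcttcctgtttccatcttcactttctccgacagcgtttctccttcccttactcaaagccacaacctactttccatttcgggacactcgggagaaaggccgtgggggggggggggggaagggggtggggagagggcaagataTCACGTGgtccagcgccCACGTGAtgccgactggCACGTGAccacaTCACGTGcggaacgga
Atp6v1a, chr16:44139260-44139509, minus strand: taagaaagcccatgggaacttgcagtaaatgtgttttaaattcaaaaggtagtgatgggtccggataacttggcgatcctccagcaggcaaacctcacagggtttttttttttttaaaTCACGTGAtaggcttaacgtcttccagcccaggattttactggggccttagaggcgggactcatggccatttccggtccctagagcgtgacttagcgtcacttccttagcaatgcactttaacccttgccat
Psap, chr10:60277378-60277627, plus strand: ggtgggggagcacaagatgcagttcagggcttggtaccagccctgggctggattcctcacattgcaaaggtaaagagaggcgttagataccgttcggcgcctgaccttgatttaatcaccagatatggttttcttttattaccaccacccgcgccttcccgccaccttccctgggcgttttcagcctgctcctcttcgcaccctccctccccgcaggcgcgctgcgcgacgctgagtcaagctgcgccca

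Both the Ctsd and the Lamp1 sequences hold several matches, and in Ctsd and Atp6v1a the core overlaps its own complement. Neither of the 2 windows that the table holds for Psap has a match. Of 93 lysosomal genes 75 had a window, and 15 of these (20.0%) held TCACGTG. The share was 4.80% of 15006 protein-coding genes with a window, 8.39% of those in the brightest 20%, 2.15% of those in the dimmest 20% and 0.808% of 866 Olfr genes, and 3.77% of all 32851 windows of the table. Beside the 3 printed genes, the holders were Atp6v0b, Gla, Clcn7, Atp6v0e, Naglu, Atp6v0d1, Igf2r, Mcoln1, Gaa, Glb1, Arsa and Sgsh. Their signals reached from 7.41 in Sgsh to 13.56 in Ctsd, and the median percentile was 97.6 with a match and 96.2 without. Lysosomal genes with and without the core thus held much the same ranks. The shorter E-box CACGTG, which every TCACGTG contains, was in 22.7% of the lysosomal windows and 8.44% of the protein-coding ones. The factors themselves were above the level: Tfe3 at 8.88 ± 0.06, Tfeb at 8.31 ± 0.06 and Mitf at 9.23 ± 0.08. Mitf has 2 probe sets, and the other averaged 5.93, so its level depends on which is read.

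Over the protein-coding genes with a window, base composition and several motifs differed with signal. The median GC content of the windows was 45.0% in the dimmest 20% of protein-coding genes, 62.3% in the brightest 20% and 35.0% in Olfr genes. The GC-box GGGCGG was in 18.7% of windows in the dimmest 20% and 69.8% in the brightest. The TATA-box letters TATAAA ran the other way, with 25.9% and 6.68%, and 41.3% in Olfr genes, many of which belong to the dimmest 20%. The purine-rich GAGGAA, a core that PU.1 and other ETS factors bind, was in 27.0% of windows in the dimmest 20% and 27.8% in the brightest, and the AP-1 site TGACTCA in 6.38% and 3.48%. These shares are a description, and the part of GC content in them was not tested. Genes between were left out, since windows covered fewer than 80% of some groups of them.

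Receptors for particles, lipoproteins and dead cells ranked higher than chemoattractant receptors. Of 177 receptor genes 113 were above the level (63.8%, beside 52.5% of all genes), with a median percentile of 62.4. Among scavenger and lipoprotein receptors 12 of 20 (60%) passed, near that share. Cd36, which takes up oxidised lipoprotein and fatty acids, gave 12.86, 12.86, 12.87 and 12.88. Cd68 was at 12.95, 12.91, 12.90 and 12.97, Lrp1, an endocytic receptor for many ligands, at 11.16, 11.25, 11.27 and 11.29, and Msr1, the class A scavenger receptor, at 9.73, 9.54, 9.56 and 9.64. All 4 were above the level on every array by more than 3 log2 units. Cd163, the haemoglobin scavenger receptor, was not, at 5.22, 5.12, 5.28 and 5.48, and neither were Olr1 (5.77 ± 0.27) and Scara3 (6.02 ± 0.17). Marco, a class A relative of Msr1, lay at the level, with 6.33, 6.45, 6.06 and 6.46, and passed on 3 arrays.

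Of 15 Fc and complement receptor genes 9 were above the level (60%), a share near the 52.5% of all genes. C3ar1, the receptor for the complement fragment C3a, was at 12.20, 12.19, 12.15 and 12.21, and Fcer1g, the common gamma chain of Fc receptors, at 12.02, 11.72, 11.69 and 11.85. The IgG receptors followed: Fcgr3 at 9.66 ± 0.15, Fcgr4 at 9.09 ± 0.13 and the inhibitory Fcgr2b at 8.93 ± 0.16. In Fcer1g and in Fcgr3 array 1 was the highest of the 4. The lowest members, Fcer2a, Cr2 and Fcer1a, known from B cells and mast cells, were at 4.99 ± 0.17, 4.62 ± 0.10 and 3.82 ± 0.08. Among 24 integrin chains 17 passed. The common leukocyte beta chain Itgb2 was brightest (12.53 ± 0.05), then Itgax, the CD11c chain (11.28 ± 0.06), Itgb1 (11.25 ± 0.03), Itgb5 (10.40 ± 0.13), Itgam, the CD11b chain (10.00 ± 0.10), and Itgav (9.75 ± 0.12). Itgae, Itga8 and Itgb6, chains of epithelium-associated and mesenchymal integrins, were the lowest at 4.45 to 5.45.

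Genes for the uptake of dead cells were above the level in 15 of 17 cases (88.2%, beside 52.5% of all genes). Their median percentile was 84.6, over receptors together with bridging and signalling proteins such as Gas6 and Elmo1. The receptors Axl, Tyro3, Adgrb1 and Havcr2 passed at lower ranks, percentiles 53.9 to 69.2. Mfge8, the bridge between phosphatidylserine and integrins, gave 12.79, 12.74, 12.70 and 12.77. Trem2, a lipid-sensing receptor, gave 10.41, 10.35, 10.36 and 10.41, and its adaptor Tyrobp averaged 11.04 ± 0.06. Mertk, the receptor kinase for Gas6 and protein S, was at 9.80 ± 0.03 and the inhibitory Cd300a at 10.47 ± 0.08. The phosphatidylserine receptors Timd4 and Havcr1 (5.20 ± 0.05) were the exceptions.

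Pattern receptors were above the level in 17 of 21 cases (81.0%, beside 52.5% of all genes). They still ranked lower than the lysosomal genes, with a median percentile of 72.0. Cd180, a Toll-like relative that tunes responses to lipopolysaccharide, was the brightest at 10.80, 10.80, 10.76 and 10.81. Tlr13, a sensor of bacterial ribosomal RNA, averaged 10.16 ± 0.15, and Cd14 9.56 ± 0.15. Ly86, the partner of Cd180, was at 9.05 ± 0.19. The lipopolysaccharide receptor Tlr4 was at 9.05, 8.91, 8.79 and 9.05, and its partner Ly96 at 8.82 ± 0.22. The parts of the lipopolysaccharide receptor in the list, Cd14, Tlr4 and Ly96, were thus all above the level. Nlrp3, the inflammasome sensor, was the lowest member at 5.29, 4.92, 4.89 and 5.29, in the range of the Olfr genes, and Tlr3, Tlr12 and Nod2 passed on 3 arrays each.

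Of 20 C-type lectin receptors 10 were above the level (50%, beside 52.5% of all genes), so the list as a whole lay near that share. Clec7a, the fungal glucan receptor Dectin-1, was at 11.02, 10.98, 11.04 and 10.98, Clec4d at 10.86 ± 0.13 and the mannose receptor Mrc1 at 9.90, 9.86, 9.76 and 9.95. At the low end were Clec9a (4.61 ± 0.11), Mgl2 (4.50 ± 0.21) and Clec1b (4.34 ± 0.05). Mrc1 and Mgl2 are both read as markers of alternative activation, and here Mrc1 stood at percentile 94.9 and Mgl2 at 10.9.

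Receptors for cytokines and growth factors passed in 26 of 39 cases (66.7%, beside 52.5% of all genes). The highest was Il7r, the receptor chain for interleukin-7, best known from lymphocytes, with 12.24, 12.23, 12.21 and 12.22. Its SD was 0.01, and its percentile 99.7. Next came Csf2rb, the shared chain for GM-CSF and interleukin-3 (11.67 ± 0.05), Il10rb (11.55 ± 0.10), Csf1r (11.12 ± 0.07), the TNF receptor Tnfrsf1b (11.10 ± 0.10) and the interferon-gamma receptor chain Ifngr2 (11.09 ± 0.04). The lowest members were Il2ra, Il5ra and Il13ra2, at 3.39 to 4.48. Chemoattractant receptors ranked lower, with 7 of 21 above the level (33.3%) and a median percentile of 25.8. Cxcr4, the receptor for Cxcl12, was the exception at 11.63, 11.64, 11.60 and 11.68, and Ccrl2, a receptor that presents ligand without signalling, followed at 9.76 ± 0.07. Cxcr1 (7.36 ± 0.06), Ccr1 (7.31 ± 0.20), Cx3cr1 (6.97 ± 0.19) and Ccr7 (6.63 ± 0.28) were above the level at lower ranks, and Cxcr2 (4.45 ± 0.31), Ccr8 (4.44 ± 0.45) and Ccr2 were the lowest.

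**Figure D4:**
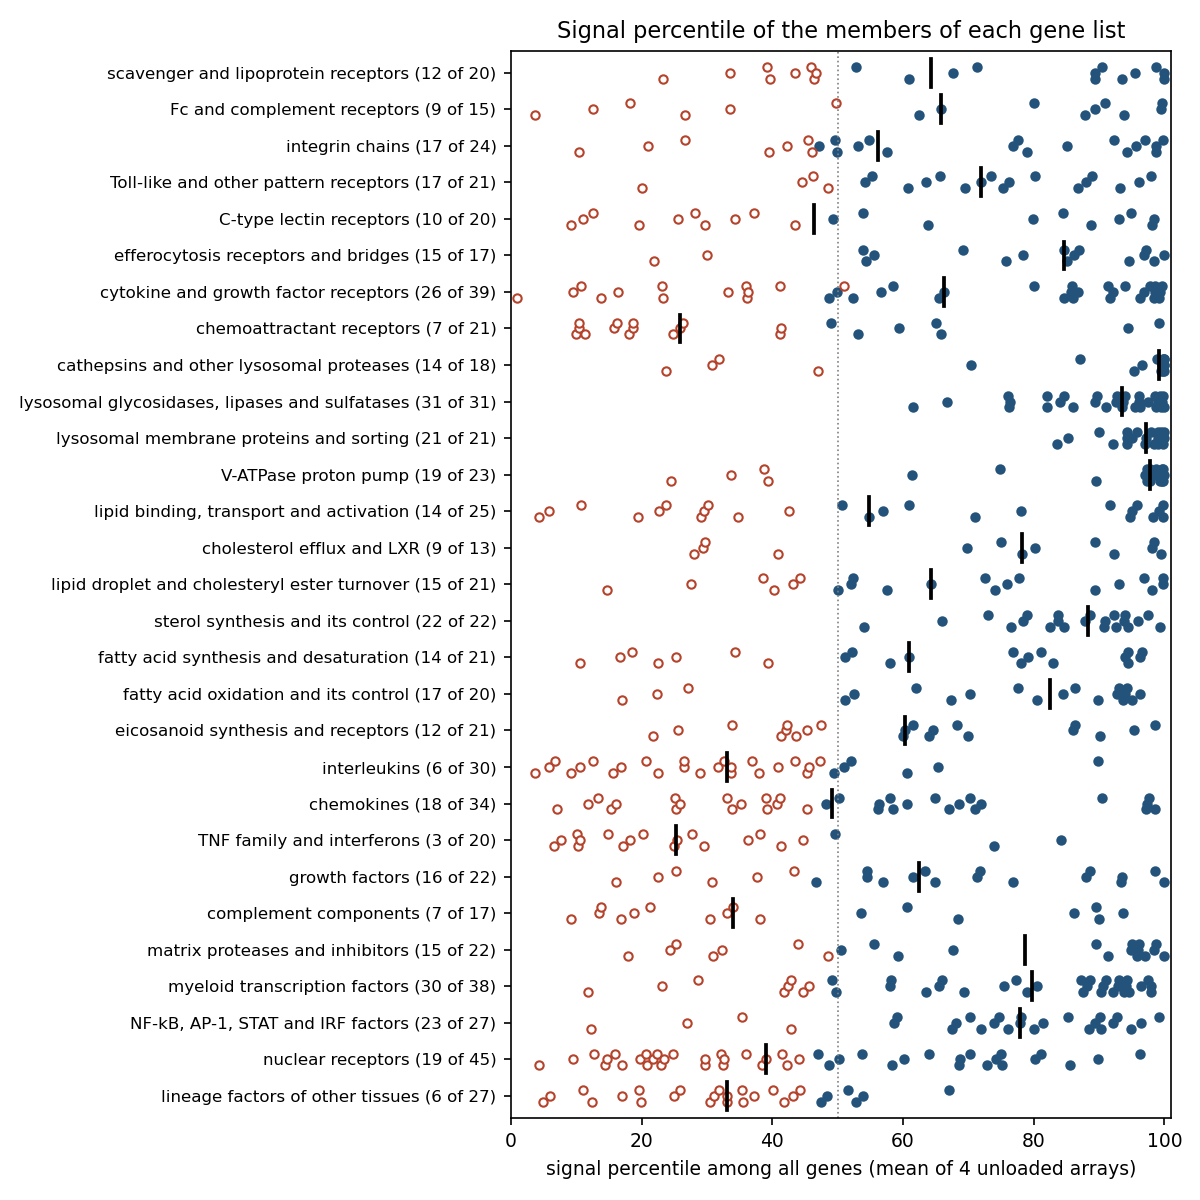
Signal percentile among all genes (mean of 4 unloaded arrays, x axis) of each measured member of the gene lists for receptors, lysosome, lipid handling, cytokines and transcription factors. Filled points are above the olfactory receptor level on 4 of 4 arrays, open points are not, black bars are list medians, the dotted line is percentile 50, and the counts give members above the level of members measured. The 4 lysosomal lists and sterol synthesis have medians of 88.3 or more, and chemoattractant receptors and TNF family members have the lowest medians, 25.8 and 25.2.

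Genes of lipid handling were above the level in 103 of 143 cases (72.0%, beside 52.5% of all genes), and their median percentile was 74.1. Carriers and uptake were led by secreted proteins. Apoe, the apolipoprotein that macrophages release to carry cholesterol, gave 12.69, 12.54, 12.55 and 12.59, and Lpl, the lipase that frees fatty acids from circulating lipoproteins, 12.29, 12.23, 12.31 and 12.34. Fabp5 (11.54 ± 0.07) was the highest of the intracellular fatty acid carriers, and Fabp4 averaged 9.37 ± 0.06. The carriers of gut and liver, Fabp6, Fabp2 and Fabp1, were the 3 lowest of 25 members, at 4.48 ± 0.07, 4.05 ± 0.14 and 3.89 ± 0.15. The list of carriers as a whole had a median percentile of 54.8, close to that of all genes.

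Cholesterol export was represented by its transporters. Abcg1 was at 10.88, 10.88, 10.82 and 10.90 and Abca1 at 9.46, 9.37, 9.39 and 9.55. The nuclear receptor Nr1h3 (LXR alpha), which drives both, was at 8.36, 8.32, 8.09 and 8.37. The sterol exporters of gut and liver, Abcg5 (5.59 ± 0.09) and Abcg8 (5.51 ± 0.05), were not above the level, nor was Ch25h (5.57 ± 0.10), the hydroxylase that makes 25-hydroxycholesterol. Storage was led by the droplet coat Plin2, at 12.36, 12.30, 12.25 and 12.40, with the neutral ester hydrolase Nceh1 at 10.89 ± 0.09 and Plin3 at 10.38 ± 0.06. Cidec, Fitm1 and Cidea, droplet proteins known from fat and muscle, were the lowest of that list, at 4.77 to 5.99. Of 21 droplet genes 15 passed (71.4%, beside 52.5% of all genes).

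All 22 measured genes of sterol synthesis and its control were above the level (beside 52.5% of all genes), with a median percentile of 88.3. Msmo1, a sterol demethylase, gave 11.82, 11.71, 11.73 and 11.87, and Insig1, the brake on sterol synthesis in the endoplasmic reticulum, 10.61, 10.54, 10.51 and 10.73. Hmgcs1, an early enzyme of the pathway, was at 9.80, 9.70, 9.70 and 9.93. Its master regulator Srebf2 was at 9.70, 9.68, 9.70 and 9.72 and varied little. In Msmo1, Insig1 and Hmgcs1 array 4 was the highest. The lowest were Mvk, Tm7sf2 and Pmvk, at 7.81 ± 0.06, 7.37 ± 0.10 and 6.68 ± 0.08. In the list of fatty acid synthesis and desaturation 14 of 21 genes were above the level (66.7%). Elovl1 (10.30 ± 0.09), the desaturase Scd2 (10.18 ± 0.17), Fads1 (9.78 ± 0.08), Acly (9.76 ± 0.09) and Elovl5 (9.68 ± 0.09) were in the brightest 10%, and Elovl3, Scd4 and Elovl2 were at 4.46 to 5.02.

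Fatty acid oxidation passed in 17 of 20 cases, at a median percentile of 82.5. The nuclear receptor Pparg (10.22 ± 0.05) was the brightest member. Acadl, an acyl-CoA dehydrogenase, was at 10.05, 9.84, 9.80 and 9.88, and Etfa, Hadha and Acadm were at 9.64 to 9.75. The 3 members not above the level were the coactivator Ppargc1a (5.46 ± 0.13), the nuclear receptor Ppara (5.23 ± 0.10) and the kinase Pdk4 (4.92 ± 0.06). In eicosanoid synthesis 12 of 21 passed (57.1%, near the 52.5% of all genes). Ptges3 (11.17 ± 0.04, with another probe set at 9.08), the prostaglandin D synthase Hpgds (9.96 ± 0.05), the lipoxygenase-activating protein Alox5ap (9.43, 9.09, 9.06 and 9.13) and the leukotriene hydrolase Lta4h (8.79 ± 0.09) were the highest. Ptgs2, the inducible cyclooxygenase, was at 5.85, 5.87, 5.63 and 5.78, below the level on every array.

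Secreted signals included many genes near the background. Of 145 genes for cytokines, complement and matrix enzymes 65 were above the level (44.8%, beside 52.5% of all genes), and their median percentile was 43.4. Interleukins were mostly not above it, with 6 of 30 passing. Il1rn, the natural antagonist of the interleukin-1 receptor, was the brightest at 9.22, 9.07, 9.06 and 9.20. Its agonists were lower in rank: Il1a gave 7.25, 6.88, 7.08 and 6.94, and Il1b gave 5.91, 5.66, 5.68 and 5.66, below the level on all arrays. Il6 was at 3.87, 3.91, 3.79 and 3.71 and Il10 at 4.06, 4.15, 4.06 and 4.20, at percentiles 3.68 and 6.7 of all genes. Il27 (7.33 ± 0.10), Il15 (6.58 ± 0.21), Il13 (6.52 ± 0.16) and Il34 (6.45 ± 0.06) were the others above the level, the last 2 by a small margin. Without arrays 2 and 3 the count of interleukins above the level was 10. In the TNF and interferon list 3 of 20 passed. Tnf was at 8.58, 8.40, 8.67 and 8.73, the osteoclast factor Tnfsf11 at 7.84, 8.02, 7.92 and 7.72 and Tnfsf15 at 6.47 ± 0.11. The interferon genes in the list, Ifna2, Ifng, Ifnb1, Ifnk and Ifna4, were not above the level.

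Of 34 chemokines 18 were above the level (52.9%, near the 52.5% of all genes), with a median percentile of 49.2. Ccl6 was at 11.20, 11.09, 11.01 and 11.12, Ccl9 at 10.41, 10.45, 10.51 and 10.46 and Cxcl13 at 10.49, 10.41, 10.45 and 10.62. Ccl3, a chemokine induced by activation, varied more, at 10.45, 10.36, 10.75 and 11.05, an SD of 0.32 against a median of 0.101 for genes above the level. Cxcl16, which is also a membrane scavenger receptor, was at 9.52, 8.96, 9.15 and 9.16. After these 5 came a gap, since the next member, Cxcl5, averaged 7.75 ± 0.25. The lowest were Ccl8, Cxcl15 and Ppbp, at 4.15 to 4.67.

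**Figure D5:**
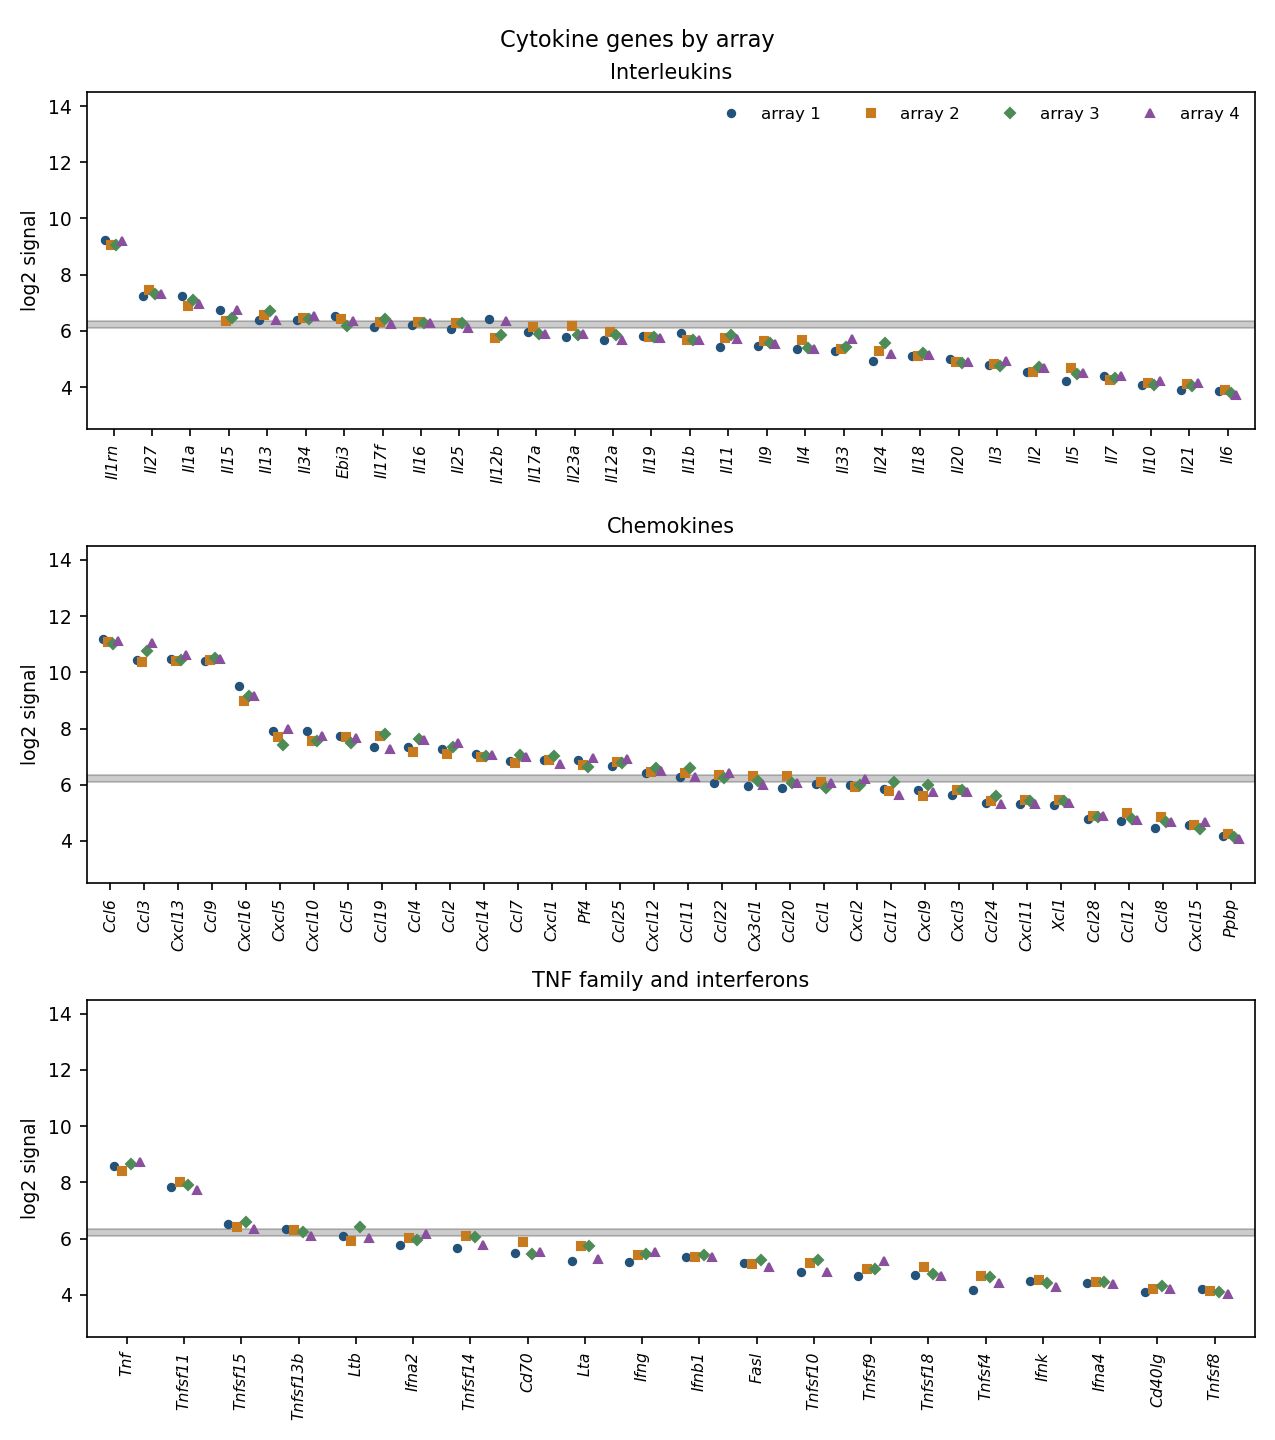
Log2 signal (y axis) of the measured interleukins, chemokines and members of the TNF family and interferons on each of the 4 unloaded arrays, ordered by mean within each panel. The grey band spans the olfactory receptor level of the arrays, 6.10 to 6.34. Il1rn, 5 chemokines from Ccl6 to Cxcl16, Tnf and Tnfsf11 stand clear of the band. Others, such as Cxcl5, Il27 and Il1a, lie above it by less, and most of the rest lie near or below it.

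Growth factors passed in 16 of 22 cases (72.7%, beside 52.5% of all genes). Grn, which encodes the lysosomal and secreted protein progranulin, gave 12.81, 12.78, 12.77 and 12.82, and Tgfb1 11.17, 11.16, 11.12 and 11.09. Mif (9.61 ± 0.07), Igf1 (9.59 ± 0.10), Vegfb (9.01 ± 0.03) and Pdgfa (8.94 ± 0.05) followed, and Csf2, the gene of GM-CSF, was the lowest at 4.85 ± 0.12. Of 17 complement genes 7 were above the level (41.2%). The 3 chains of C1q, the recognition protein of the classical pathway, were C1qb at 9.81, 9.54, 9.56 and 9.66, C1qc at 9.12 ± 0.12 and C1qa at 8.77 ± 0.16, and properdin, Cfp, was at 9.18, 8.99, 9.16 and 9.28. None of the measured genes of the terminal pathway, C6, C7, C8a, C8b, C8g, C9 and Hc, was above the level, with means of 4.33 to 5.80. Matrix proteases and their inhibitors passed in 15 of 22 cases (68.2%) and had a median percentile of 78.6. Beside Mmp12, they were led by the inhibitor Timp2 (11.20 ± 0.06), the sheddases Adam17 (10.98 ± 0.06) and Adam8 (10.42 ± 0.08), and Mmp14 (10.17 ± 0.04). Mmp7, Mmp8 and Timp4 were the lowest, at 4.98 to 5.38.

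Of 137 transcription factor genes 78 were above the level (56.9%, beside 52.5% of all genes), with a median percentile of 53.7, so the axis as a whole lay near the background share. The 100 brightest genes held 0 of the 137. They are 100 of 19938 genes, so few of any 137 genes would be among them. Factors of the myeloid lineage passed in 30 of 38 cases, with a median percentile of 79.8. Bhlhe41 was at 10.85, 10.71, 10.77 and 10.80, the antioxidant regulator Nfe2l2 at 10.87, 10.69, 10.71 and 10.75, Klf6 at 10.52, 10.54, 10.52 and 10.65 and Spi1 at 10.38, 10.22, 10.13 and 10.18. Bhlhe40 (9.80 ± 0.07) and Zeb2 (9.74 ± 0.02) came next. The lowest were Id3 (5.54 ± 0.04), the progenitor factor Myb (5.27 ± 0.03) and Spic, the factor of iron-recycling macrophages (4.56 ± 0.10).

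Signal-dependent factors passed in 23 of 27 cases (85.2%, beside 52.5% of all genes). Atf3, a stress-induced factor, was the highest of all factors listed, at 11.52, 11.46, 11.55 and 11.61. Jun (10.23 ± 0.11), Stat6 (9.87 ± 0.08), Stat3 (9.51 ± 0.09), Jund (9.42 ± 0.05) and Atf4 (9.19 ± 0.14) followed. Fosl1, Irf4 and Stat4 were the lowest, at 5.85 ± 0.15, 5.46 ± 0.22 and 4.60 ± 0.06. Of 45 nuclear receptors 19 were above the level (42.2%, beside 52.5% of all genes). Pparg, the fatty acid receptor known to raise Cd36 and Fabp4, was the highest at 10.22, 10.16, 10.27 and 10.23, and the glucocorticoid receptor Nr3c1 came next at 9.20, 9.08, 9.19 and 9.09. Nr1d2 (8.72 ± 0.08), Nr2c2 (8.35 ± 0.09), Nr1h3 and Rxra (7.95 ± 0.15), the partner of Pparg and Nr1h3, completed the first 6. The lowest were Nr0b1, Hnf4g and Nr1h5, at 4.63 ± 0.21, 4.36 ± 0.18 and 3.89 ± 0.11.

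As a reference within the transcription factors, 27 lineage factors of other tissues were measured. Of these, 6 were above the level (22.2%, beside 52.5% of all genes), with a median percentile of 33.1. They were Nkx2-5 (7.48, 7.46, 7.44 and 7.36), Gata4 (6.67 ± 0.18), Bcl11b (6.61 ± 0.12), Tal1 (6.55 ± 0.01), Myod1 (6.41 ± 0.22) and Foxa2 (6.37 ± 0.05). Apart from Nkx2-5 their means lay within 0.5 log2 of the level. Ebf1, Sox2 and Neurod1 were the lowest, at 3.97 to 4.50. Most are best known from heart, muscle, blood or gut.

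A few genes above the level varied widely between the arrays. Fam71a gave 6.13, 6.43, 7.90 and 8.20, the one SD above 1, with arrays 1 and 2 low and arrays 3 and 4 high. Usp17ld gave 6.43, 7.02, 7.66 and 8.10, and Ifnz, an interferon-zeta gene, gave 7.28, 7.40, 8.64 and 7.42. Other genes of this kind were the transcripts 1700024J04Rik, 3110040M04Rik, AY036118 and Gm15455, the olfactory receptor Olfr767 (8.84, 9.05, 8.23 and 8.18), the keratin-associated Krtap5-1 and Krtap5-3, Cdc42ep2 and Cfdp1. These 12 are few beside the 10465 genes above the level. That they held no macrophage marker and no lysosomal gene thus says little about those lists. Usp17ld, Ifnz and the Krtap5 genes belong to families of near-identical copies, so their values are uncertain. The highest Olfr genes were Olfr1174 (8.90 ± 0.13, annotated as a pseudogene), Olfr767 (8.57 ± 0.44), Olfr111 (8.43 ± 0.21), Olfr239 (7.68 ± 0.23) and Olfr1395 (7.28 ± 0.14).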

How the data were processed

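Biotin-labelled total RNA of the cultured cells was measured on Affymetrix Mouse Gene 1.0 ST arrays. The authors deposited log2 signals, for which the submitters' processing notes name RMA (robust multi-array average). The method corrects background, equalises array distributions and summarises probes, which compresses dim genes. No source used here states whether it was run on these 8 arrays alone. The 4 unloaded arrays were used, and the acetylated lipoprotein arrays only to test the choice of probe set. Having 4 arrays limits the precision.

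Of 35557 deposited probe sets, 21789 had exactly 1 gene symbol in the platform annotation, 1621 had several and 12147 are unnamed here. Of the 1-symbol probe sets, 21698 were in the RefSeq gene table (GRCm38.p6), which changed 0 symbols. The brightest probe set stood for each of the 999 genes with several, 402 of which had probe sets 1 log2 or more apart. No test compared groups. The alternatives were other background levels, other probe set rules, quantile normalisation, a filter on dim genes, the mean rule, and leaving out arrays, and one-sided limma 3.58.1 in R 4.3.3 on signal minus level. On simulated arrays with 200 of 19938 genes raised, limma made 1 false call in 138. It recovered 6% of genes 0.25 log2 above the level, 68% at 0.5 log2 and 100% at 1 log2. Recovery and false calls on the measured arrays, where 10465 genes were above the level, were not tested. The 42 gene lists (856 genes, 791 measured) and the members were chosen with earlier results of these data known. Genes were named by rule: the 30 brightest, up to 6 highest and 3 lowest per list (all members of lists of up to 14), the 12 largest SDs above the level and the 5 highest Olfr genes. Other genes named were chosen after their values were seen: Adgre1, Sirpa, Ctsf, Ctsk, Atp6v1b1, Atp6v1g1, Tcirg1, Marco, Nod2, Fabp4, Il1b, Ifng, Ifnb1, Ifnk, C7, C8a, C8b, C8g, Hc, Mitf, Tfe3, Tfeb and the genes with a promoter match. Promoter windows came from the RefSeq table, the first per gene, and any window as an alternative chosen after seeing the data. Coding length and genomic span were not used. Python 3.11.15, pandas 2.3.3 and matplotlib 3.10.9 were used.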

Additional observations from a re-analysis of the deposited data

Results flagged for a closer look

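Of 411 levels tested across the 4 arrays, 23 (5.6%) had 1 array set apart from the other 3 by more than the Dixon limit for 4 values, and chance gives about 1 in 20. The outlying array was array 1 in 7 cases, array 2 in 3, array 3 in 9 and array 4 in 4.

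Array 1 was the highest in Fcgr3, an IgG receptor (9.879), Lgals3, which encodes galectin-3 (12.872), and the translation genes Eef2 (12.010) and Tpt1 (12.460). It was the lowest in Abcg8 (5.437), the mast cell chymase Cma1 (5.685) and S100a8 (6.076). Array 2 was the lowest in Irf4 (5.131), the triglyceride lipase Pnpla2 (9.032) and Trat1 (3.248).

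Array 3 was the highest in Abcg5 (5.726), Blk (6.377), Clec9a (4.778), Ifnz (8.637) and Mpo (6.015), and the lowest in Ccr2 (4.172), Cd180 (10.763), Cd226 (4.239) and Mylip (7.486). Array 4 was the highest in Ctsb (13.261), Man2b1 (11.864) and Tal1 (6.565) and the lowest in Fabp6 (4.374). The largest gap, in Ifnz, was 1.215 log2.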

How the results depend on the processing

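The count of genes above the level was 10465 and ranged from 9708 of 18939 genes with 1 probe set to 11155 (mean above the mean level) under the alternatives that kept the level, with 10446 by one-sided limma (adjusted p under 0.05), 10466 after repeated quantile normalisation and 10518 to 10728 when single arrays were dropped. The level itself mattered most. At the 90th percentile of Olfr genes 12178 genes (61.1%) passed, at the 99th 7392 (37.1%), and with vomeronasal genes as background 14237 (71.4%). At the 90th percentile 10 interleukins, 11 lineage factors of other tissues, 8 resident macrophage markers, 4 B-cell and 3 neutrophil markers passed. At the 99th percentile the counts were 11 integrins, 3 chemoattractant receptors, 2 interleukins, 11 chemokines, 9 growth factors, 1 lineage factor, 2 T-cell, 0 NK cell, 1 mast cell, 1 dendritic cell, 7 fibroblast and mesothelial and 0 erythroid markers. With vomeronasal genes they were 19 eicosanoid genes, 18 interleukins, 7 TNF family members, 11 complement genes, 29 nuclear receptors, 17 lineage factors, 11 resident macrophage, 9 T-cell, 6 B-cell, 5 neutrophil, 5 mast cell, 6 endothelial and 4 erythroid markers. With the mean rule 7 resident macrophage and 2 B-cell markers passed, and with a filter at the median of all genes 1 mast cell marker. With single arrays dropped, B-cell markers numbered 1 to 2, and they numbered 2 without arrays 1 and 4 or without arrays 2 and 3. Without arrays 2 and 3, 10 interleukins passed. All other list counts stayed within 1.5 times the main one. As for the spread between the 4 unloaded arrays, the median SD of genes above the level was 0.101, 0.0853 after quantile normalisation, 0.089 to 0.1008 with single arrays dropped, 0.0532 without arrays 1 and 4 and 0.0574 without arrays 2 and 3; the last 2 are SDs over 2 arrays that resemble each other. The cause of the other shifts was not tested. With the mean of probe sets, 8 of 408 named genes moved by more than their SD, all downward. In any promoter window, 18 of 75 lysosomal genes (24%) held TCACGTG. No paired analysis was possible because only 1 group of arrays entered.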

Other observations

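Of the 12147 deposited probe sets that the annotation does not name, 4454 (36.7%) were above the olfactory receptor level on 4 of 4 arrays, and so were 1069 of the 1621 probe sets that carry several gene symbols. None of these probe sets entered the gene levels given above. Whether any of them lies in a gene described above was not tested.

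Some small and structural RNAs were measured as well. Rn7sk, the nuclear RNA that holds back transcription elongation, held rank 10 at 13.16, 13.23, 13.21 and 13.31. Of 53 snoRNA genes 28 were above the level (52.8%, near the 52.5% of all genes). Of 297 miRNA genes 69 passed (23.2%), and of 167 transcribed pseudogenes 45 (26.9%). COX2 here is the mitochondrial subunit of cytochrome oxidase (12.81 ± 0.04) and not the cyclooxygenase Ptgs2, which was not above the level.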
